A study of Mus musculus with 2 samples.

Results

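Irf4, Maf, Ahr and Hif1a encode transcription factors of the T helper 17 (Th17) programme, and chromatin immunoprecipitation sequencing placed STAT3 and STAT5 along their 4 loci. The loci were taken as fixed mm9 windows: chr13:30790000-30900000 for Irf4, chr8:118150000-118300000 for Maf, chr12:36130000-36270000 for Ahr and chr12:74950000-75080000 for Hif1a. Together they span 530 kb and hold 62 of the 85700 sites found in the genome, 19 at Irf4, 11 at Maf, 14 at Ahr and 18 at Hif1a. A site is a place where reads of at least 1 library piled up over their surroundings, with overlapping regions of the libraries merged.

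Both libraries came from wild type C57BL/6J mice, whose naive CD4 T cells of spleen and lymph nodes were sorted and grown for 3 days towards Th17. The medium held TGF-beta (2 ng/ml) and IL-6 (20 ng/ml) over plate-bound CD3 antibody with CD28 antibody, and antibodies against IL-2 and against IL-4 are named as well. In the STAT3 group the cells were restimulated for 30 minutes with IL-6 at 40 ng/ml and the chromatin was pulled down with a STAT3 antibody. In the STAT5 group they were restimulated for 30 minutes with IL-2 at 200 IU/ml and a mixture of STAT5a and STAT5b antibodies was used. Each group is 1 library, with 20784388 nuclear reads for STAT3 and 17963766 for STAT5. The antibody and the cytokine changed together and cannot be told apart, no input or second library was analysed here, and all intervals cover counting error only. Reads of chromatin carry no measure of Th17 marker RNA, so the labelled cell type was not checked.

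STAT3 and STAT5 are latent factors that are phosphorylated by cytokine receptor kinases, pair up and bind related sequences of the form TTCNNNGAA. IL-6 acts mainly through STAT3, which promotes Th17 differentiation, and IL-2 mainly through STAT5, which restrains IL-17 production. IRF4 binds DNA with BATF and JUN proteins and is induced by T cell receptor signals. c-MAF, the product of Maf, drives IL-21 and IL-10 expression in helper T cells. AHR is a ligand-activated receptor that promotes IL-22 expression, and HIF-1alpha is the oxygen-sensitive factor that raises glycolytic genes.

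The windows are wider than the genes, which are 17.7 kb long for Irf4, 3.64 kb for Maf, 37.0 kb for Ahr and 46.2 kb for Hif1a in RefSeq. In the same table the coding genes next to them are Dusp22 and Exoc2 for Irf4, Wwox and Dynlrb2 for Maf, Snx13 and Agr3 for Ahr, and Prkch and Snapc1 for Hif1a. That table is on GRCm38 and the reads are on mm9, so no site is placed in a promoter, exon or intron here, and a site in a window is not assigned to its gene. Sites are numbered within a window by increasing mm9 position.

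The only sequences of these loci at hand were RefSeq promoters on GRCm38, from 250 bases before to 50 after a gene's start, for 2 of the 4 genes, Irf4 and Hif1a. Neither holds the canonical STAT motif TTCNNNGAA on either strand, which 8.30% of 32851 promoters of that length hold. The Hif1a promoter holds the form with 1 more spacer base, TTCNNNNGAA, as do 6.95% of all promoters, and the first match lies 235 to 226 bases before the start. The stretch around it (chr12:73907622-73907651 on GRCm38.p6, plus strand) is shown because only this promoter of the 2 holds either form. The match is in capitals, and further matches in the promoter were not looked for.
Hif1a: agacgcagctTTCCATTGAAggtgcagaga
Whether any site below covers it was not determined, and a match or its absence is a description of these letters only.

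Both antibodies marked all 4 windows. STAT5 had more regions when a region had to stand over its local mean, but not clearly more against the genome-wide mean alone, where the 4 windows held 103 STAT3 and 105 STAT5 regions. Of 200 bp windows with a read, 0.856% were enriched with STAT3 and 1.49% with STAT5 over the whole genome. With the local mean the 4 gene windows held 35 STAT3 and 53 STAT5 regions: 11 and 16 at Irf4, 8 and 8 at Maf, 6 and 13 at Ahr, and 10 and 16 at Hif1a. After merging, 26 of the 62 sites had regions of both antibodies, 27 of STAT5 only and 9 of STAT3 only. Over all sites of the genome these shares were 47.7% with both, 34.1% with STAT5 only and 18.2% with STAT3 only.

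The windows were rich in sites, with 11.7 per 100 kb against 3.63 over the genome. Irf4 was the densest at 17.3 per 100 kb, followed by Hif1a at 13.8, Ahr at 10.0 and Maf at 7.33. When the genome was cut end to end into windows of each gene's size, 0.862% of 24004 windows held as many sites as Irf4 or more, 3.04% of 20312 as many as Hif1a, 10.3% of 18861 as many as Ahr and 19.5% of 17600 as many as Maf. The end-to-end windows include stretches where few reads can be placed, while the density of 3.63 is over the 1 kb bins that held a read.

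The ratio used below is the STAT5 level over the STAT3 level, each in reads per 1000000 nuclear reads of its library (RPM) in the same 200 bp, with an exact 95% interval. A site was called higher in a library when that interval lay wholly beyond 2-fold. STAT5 was called higher at 22 of the 62 sites, where 27.8% of all sites are called so, and STAT3 at 2 of 62, where 3.19% are. The remaining 38 sites were called for neither, which does not show that the levels were equal there. The median ratio over the 62 sites was 2.14, against 1.35 over all sites of the genome (quartiles 0.690 and 4.84).

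**Figure D1:**
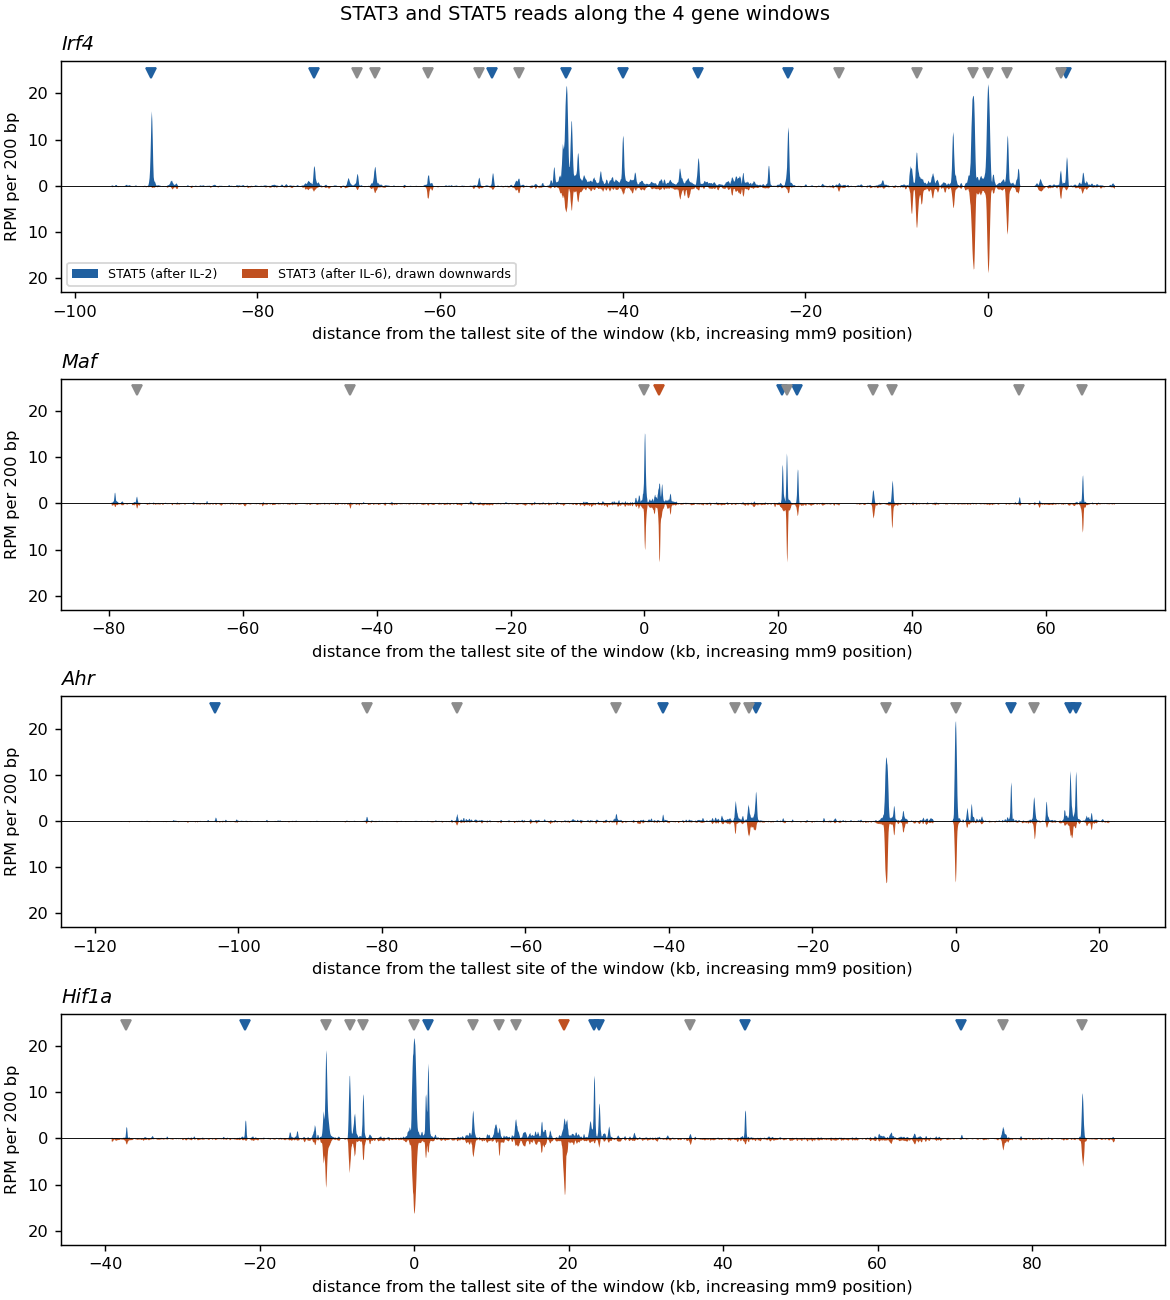
Reads of STAT5 (blue, upwards) and STAT3 (orange, downwards) in RPM per 200 bp along each gene window, against distance in kb from the tallest site of that window. Triangles mark the 62 sites, blue where STAT5 and orange where STAT3 was called higher and grey where neither was, and the tallest STAT5 signals of 21.7 to 22.1 RPM stand at Irf4, Ahr and Hif1a.

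At Irf4 the tallest signals stood at 2 places that differed in their balance, a cluster and a single site. A cluster of 3 tall sites (15 to 17) within 3.70 kb was high with both antibodies and had ratios near 1. At 46.2 kb to the left of site 16 stood site 9, where STAT5 was also near the most reads that can be counted and STAT3 had 104 reads. STAT5 was called higher at 8 of the 19 sites and STAT3 at 0, although 3 sites had a region of STAT3 only.

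The tallest site, site 16 (chr13:30885901-30886200), had 391 STAT3 and 397 STAT5 reads in 200 bp, which is 18.8 and 22.1 RPM. Its ratio was 1.17 (interval 1.02 to 1.35). By STAT3 reads it ranks 5 of the 85700 sites and by STAT5 reads 55. No position and strand is used by more than 1 read, which limits 200 bp to 400 reads, so both values sit near the ceiling and the ratio is compressed.

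Its neighbour site 15 (chr13:30884251-30884650) had 375 STAT3 and 352 STAT5 reads, and a ratio of 1.09 (0.936 to 1.26). Site 17 (chr13:30888001-30888300) had 218 STAT3 and 198 STAT5 reads and a ratio of 1.05 (0.863 to 1.28). Site 17 was listed as a region of STAT3 only, yet its STAT5 level was 3.75-fold over the local mean, just under the 4-fold minimum, and 130 times the genome-wide mean. Site 14, with 186 and 129 reads, and site 18, with 58 and 62, also had intervals that included 1.

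Site 9 (chr13:30839651-30840050) had 391 STAT5 reads (21.8 RPM) against 104 STAT3 reads (5.00 RPM). Its ratio was 4.35 (3.50 to 5.45). A correction that raises a count by the reads expected to have met a position already taken gave 14.6 (11.3 to 18.9). Intervals after this correction are approximate, not exact. Before and after the correction, the interval at site 9 does not meet that at site 16, whose corrected ratio was 1.49 (1.12 to 1.99). Both STAT5 counts lie near the ceiling, so these counts do not rank the STAT5 levels.

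The most one-sided Irf4 site lay at the left of the window. Site 1 (chr13:30794201-30794700) had 292 STAT5 and 5 STAT3 reads, or 16.3 and 0.241 RPM, a ratio of 67.6 (28.6 to 210). STAT3 was there 2.84 times its genome-wide mean of 1.76 reads per 200 bp. By the lower end of the interval, 260 of the 85700 sites of the genome, this one included, reach that ratio.

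STAT5 was also called higher at site 12 (chr13:30863951-30864350), with 230 STAT5 and 32 STAT3 reads and a ratio of 8.32 (5.73 to 12.4). Site 11 (chr13:30854151-30854500) had 110 and 17 reads and a ratio of 7.49 (4.47 to 13.3). Site 19 (chr13:30894501-30894850) had 114 and 18 reads and a ratio of 7.33 (4.43 to 12.8). The other called sites were 2, 7 and 10, where 79, 52 and 197 STAT5 reads met 20, 15 and 40 of STAT3. Site 7 was not called when reads were counted in 400 bp (ratio 2.92, 1.77 to 4.96).

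All 5 sites from 13 to 17, which include the tall cluster, had ratios between 0.602 and 1.17 and none was called. Of the 12 sites to their left, 7 were called higher with STAT5 and the ratios ran from 0.884 to 67.6. This grouping by position was chosen after the values were seen.

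At Maf the libraries were most alike in total, and STAT3 was called higher at 1 tall site, as it was at Hif1a. The Maf window had the fewest sites, and the tall ones lay in a pair 2.20 kb apart and a trio 20.6 to 22.9 kb to the right of the first of them. STAT5 was called higher at 2 of the 11 sites and STAT3 at 1.

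Site 4 (chr8:118231701-118232100) had 263 STAT3 reads (12.7 RPM) and 78 STAT5 reads (4.34 RPM), a ratio of 0.343 (0.263 to 0.443), so STAT3 was 2.91 times as high. Over the genome 1986 of 85700 sites reach this ratio on the STAT3 side by the end of the interval nearest to 1. The call depended on the counting: in 400 bp the ratio was 0.410 (0.330 to 0.506), and with the libraries scaled by their reads in 10 kb bins without a region, in place of all nuclear reads, it was 0.475 (0.364 to 0.613), and neither interval lies wholly beyond 2-fold.

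Its neighbour, site 3 (chr8:118229501-118229900), leaned the other way. It had 274 STAT5 reads (15.3 RPM) and 198 STAT3 reads (9.53 RPM), a ratio of 1.60 (1.33 to 1.93), and is the tallest STAT5 site of the window. The pair is 2.20 kb apart, and their intervals are far from meeting.

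In the trio, site 6 (chr8:118250751-118251150) had 264 STAT3 and 182 STAT5 reads, 12.7 and 10.1 RPM, a ratio of 0.798 (0.657 to 0.967). Site 5 (chr8:118250101-118250450), 650 bp to its left, had 152 STAT5 and only 29 STAT3 reads and a ratio of 6.06 (4.06 to 9.36). In 400 bp, which takes in part of the space between the sites, the ratio at site 5 was 3.82 (2.82 to 5.25). Site 7 (chr8:118252401-118252700) had 134 STAT5 and 54 STAT3 reads and a ratio of 2.87 (2.08 to 4.01), and was not called in 400 bp (2.62, 1.97 to 3.51).

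The remaining Maf sites were small or balanced. STAT3 reads at sites 8, 9 and 11 numbered 66, 111 and 130 and STAT5 reads 52, 79 and 106, with intervals that include 1. Site 2 had the lowest ratio of all 62 sites, 0.263, but rested on 22 STAT3 and 5 STAT5 reads and was not called (0.0778 to 0.712). Site 1, with 21 and 28 reads, lies beside a taller STAT5 site just outside the window (chr8:118148901-118149450, 384 STAT5 and 72 STAT3 reads), which the window's edge leaves out.

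That site is 1 of 7 within 10 kb outside the 4 windows. STAT5 was called higher at it, with a ratio of 6.17 (4.79 to 8.05). Of the 7, the tallest with STAT3 lies before the Hif1a window (chr12:74942951-74943850), with 340 STAT3 and 370 STAT5 reads and a ratio of 1.26 (1.08 to 1.46). STAT5 was also beyond 2-fold before the Irf4 window (chr13:30784601-30785250, 109 STAT5 and 36 STAT3 reads) and after the Ahr window (chr12:36273201-36273600, 48 and 2 reads). The other 3, after Irf4 and before Maf, had 104 to 236 STAT3 and 156 to 170 STAT5 reads and were called for neither.

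Ahr had a pair of tall sites shared by both antibodies and a series of STAT5 sites to either side. STAT5 was called higher at 6 of the 14 sites and STAT3 at 0. The left 77.0 kb of the window, up to site 5, held nothing above 30 reads of either antibody at a site.

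Site 10 (chr12:36247451-36248000) had 390 STAT5 reads (21.7 RPM) and 266 STAT3 reads (12.8 RPM), a ratio of 1.70 (1.45 to 1.99). With 390 of 400 positions taken this ratio is compressed, and the correction for taken positions gave 3.90 (3.17 to 4.81), which would be called. Site 9 (chr12:36237751-36238400), 9.70 kb to its left, had 278 STAT3 and 250 STAT5 reads, 13.4 and 13.9 RPM, a ratio of 1.04 (0.874 to 1.24). The intervals of these neighbours do not meet, with STAT3 almost equal at the pair and STAT5 higher at site 10.

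The largest ratio at Ahr was at site 11 (chr12:36255251-36255650), only 7.70 kb to the right of site 10. It had 152 STAT5 reads and 4 STAT3 reads and a ratio of 44.0 (16.8 to 163). STAT3 was there 0.647 of its local mean and 2.27 times its genome-wide mean. The lower end of the interval is reached by 1125 of the 85700 sites.

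Site 14 (chr12:36264351-36264700) had 194 STAT5 and 28 STAT3 reads and a ratio of 8.02 (5.38 to 12.4). Site 13 (chr12:36263551-36264100) had 196 and 60 reads and a ratio of 3.78 (2.82 to 5.14). Site 8 (chr12:36219701-36220100) had 116 and 31 reads and a ratio of 4.33 (2.89 to 6.66), while site 7 (chr12:36218801-36219000), 1000 bp to its left and the third tallest with STAT3, had 69 STAT3 and 55 STAT5 reads and a ratio of 0.922 (0.635 to 1.33). The other 2 called sites were small: site 5 had 26 STAT5 and 5 STAT3 reads, and site 1 had 15 and 2 and lost its call in 400 bp (3.09, 1.15 to 9.63).

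Hif1a had the second densest set of sites and, like Maf, 1 tall site where STAT3 was called higher. STAT5 was called higher at 6 of the 18 sites and STAT3 at 1. Most of the tall sites lay within 35.4 kb, from site 3 to site 13.

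The tallest, site 6 (chr12:74988901-74989550), had 391 STAT5 reads (21.8 RPM) and 334 STAT3 reads (16.1 RPM), a ratio of 1.35 (1.17 to 1.57). The correction for taken positions gave 2.44 (1.98 to 3.00). Only 1.80 kb to the right, site 7 (chr12:74990951-74991150) had 293 STAT5 and 61 STAT3 reads and a ratio of 5.56 (4.21 to 7.45), or 9.22 (6.97 to 12.2) after the correction. STAT5 was thus tall at both neighbours while STAT3 was tall at site 6.

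Site 11 (chr12:75008451-75008950) was the reverse. It had 251 STAT3 reads (12.1 RPM) and 80 STAT5 reads (4.45 RPM), a ratio of 0.369 (0.283 to 0.476), so STAT3 was 2.71 times as high. It was called in 400 bp too (0.355, 0.288 to 0.435), but not with scaling by bins without a region (0.510, 0.391 to 0.658). By the end of the interval nearest to 1, 2396 of the 85700 sites reach it on the STAT3 side.

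Site 12 (chr12:75012351-75012700), 3.85 kb to the right of site 11, had 246 STAT5 and 18 STAT3 reads and a ratio of 15.8 (9.80 to 27.1). Over these 3.85 kb the STAT3 count went from 251 to 18 and the STAT5 count from 80 to 246. Site 13, a further 650 bp on, had 138 STAT5 and 33 STAT3 reads and a ratio of 4.84 (3.29 to 7.31).

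Site 3 (chr12:74977401-74978100) had 345 STAT5 and 206 STAT3 reads, 19.2 and 9.91 RPM, a ratio of 1.94 (1.63 to 2.31). The correction gave 3.17 (2.63 to 3.82), which would be called. STAT5 reads at sites 4 and 5 numbered 246 and 174 and STAT3 reads 135 and 95, with ratios of 2.11 and 2.12 that were not called. The correction gave 2.68 (2.17 to 3.32) at site 4, which would be called, and 2.44 (1.89 to 3.13) at site 5, which would not.

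STAT5 was also called higher at site 2 (chr12:74967201-74967600), with 72 STAT5 and 8 STAT3 reads and a ratio of 10.4 (5.01 to 25.04). Site 15 (chr12:75031901-75032300) had 111 and 24 reads and a ratio of 5.35 (3.42 to 8.70). Site 16 had 16 and 2 reads and lost its call in 400 bp (5.50, 1.83 to 22.2). Site 9, a region of STAT3 only, had 78 STAT3 and 44 STAT5 reads and a ratio of 0.653 (0.440 to 0.956). Its reads were uneven by strand, with 24 of 78 STAT3 reads (30.8%, exact 95% interval 20.8 to 42.2%) and 14 of 44 STAT5 reads (31.8%, 18.6 to 47.6%) on the plus strand.

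**Figure D2:**
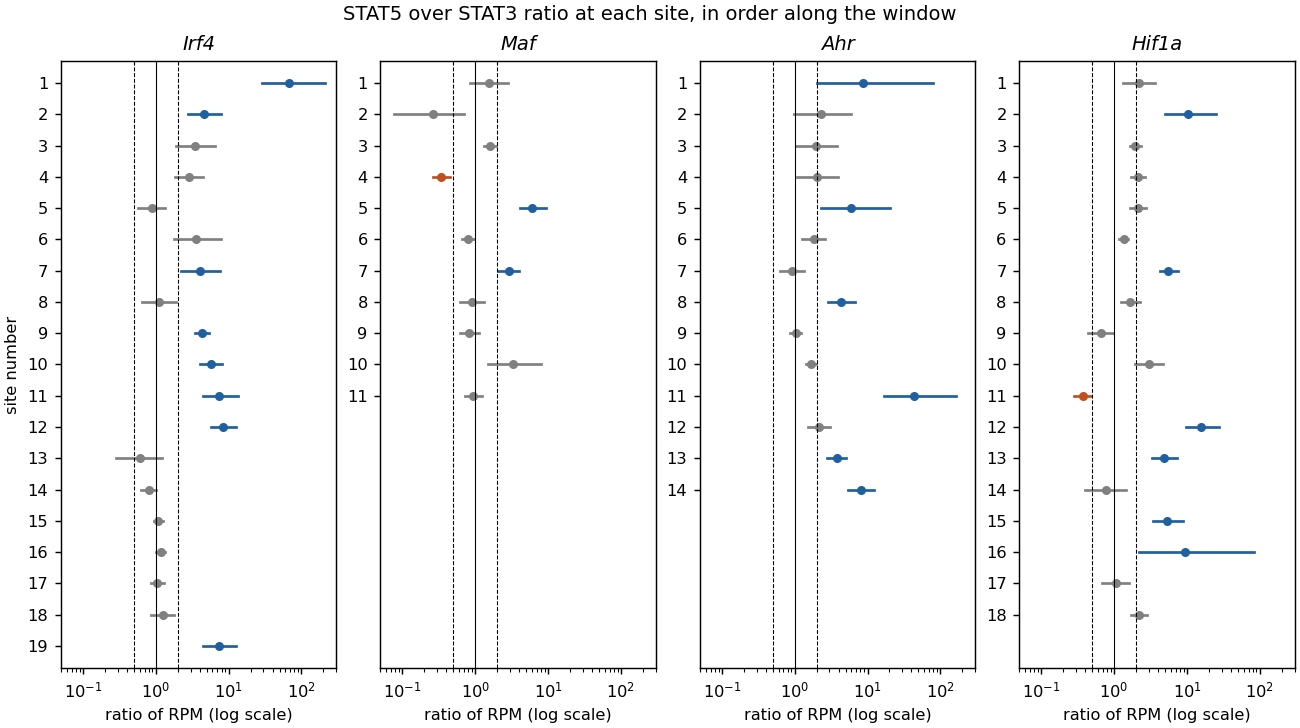
Ratio of STAT5 to STAT3 RPM at each of the 62 sites on a log axis, in order along each gene window, with exact 95% intervals that cover counting error only; dashed lines mark 2-fold to either side. Blue sites were called higher with STAT5 (8 at Irf4, 2 at Maf, 6 at Ahr and 6 at Hif1a) and orange sites with STAT3 (site 4 at Maf and site 11 at Hif1a).

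Some neighbouring sites differed in their balance, as is common over the genome. There were 5 pairs of sites with centres within 1000 bp, and in all 5 the intervals of the 2 ratios did not overlap, where 55.0% of 6351 such pairs in the genome do not. They were sites 18 and 19 at Irf4 (1.24 and 7.33), 5 and 6 at Maf (6.06 and 0.798), 7 and 8 at Ahr (0.922 and 4.33), 13 and 14 at Ahr (3.78 and 8.02), and 12 and 13 at Hif1a (15.8 and 4.84). Intervals are narrower at sites with more reads, which the genome-wide share does not take into account. Median reads were 36.5 STAT3 and 100.5 STAT5 at the 62 sites, against 26 and 31 over all sites of the genome. The 200 bp counted at a site do not reach its neighbour, and the count describes these pairs only.

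**Figure D3:**
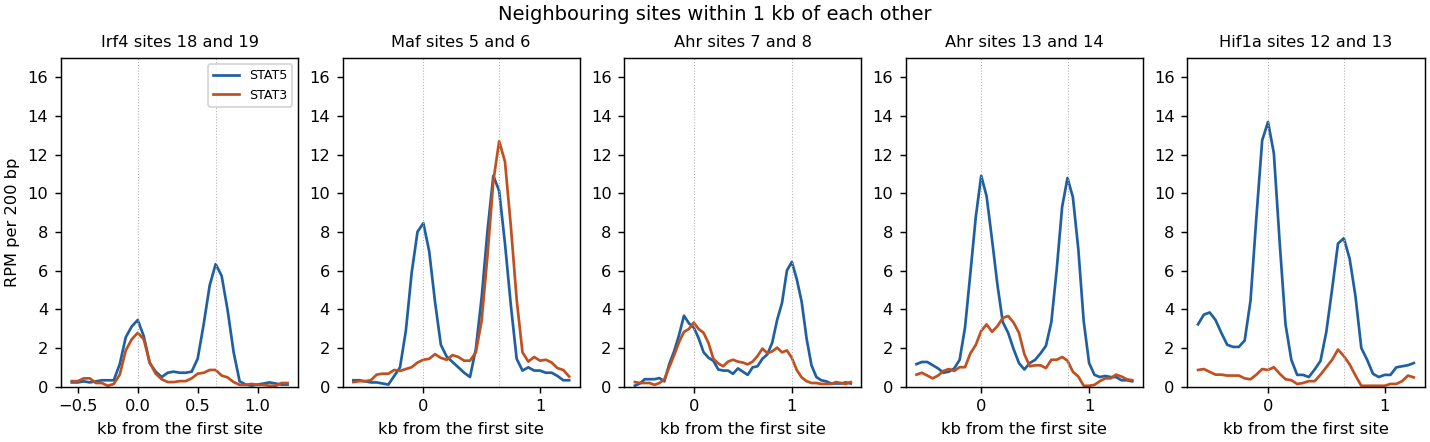
STAT5 (blue) and STAT3 (orange) levels in RPM per 200 bp around the 5 pairs of sites within 1 kb, against kb from the first site of the pair, with dotted lines at the site centres. In the Maf pair STAT3 rises from 1.40 RPM at site 5 to 12.7 RPM at site 6, while STAT5 has a summit at both.

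A region called for 1 antibody was not empty of the other. At the 27 sites with a STAT5 region only, STAT3 reads ranged from 2 to 95 with a median of 18, and 19 of these sites were called higher with STAT5. At the 9 sites with a STAT3 region only, STAT5 reads ranged from 5 to 198 with a median of 44, and 2 were called higher with STAT3. At the 26 sites with both, the medians were 99 STAT3 and 153.5 STAT5 reads, and 3 were called higher with STAT5. Over all sites of the genome, whatever their class, 27.8% were called higher with STAT5 and 3.19% with STAT3. Shares per class were not computed over the genome, so the counts per class describe these sites only. The class of a site and its ratio come from the same reads and are no independent measures.

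**Figure D4:**
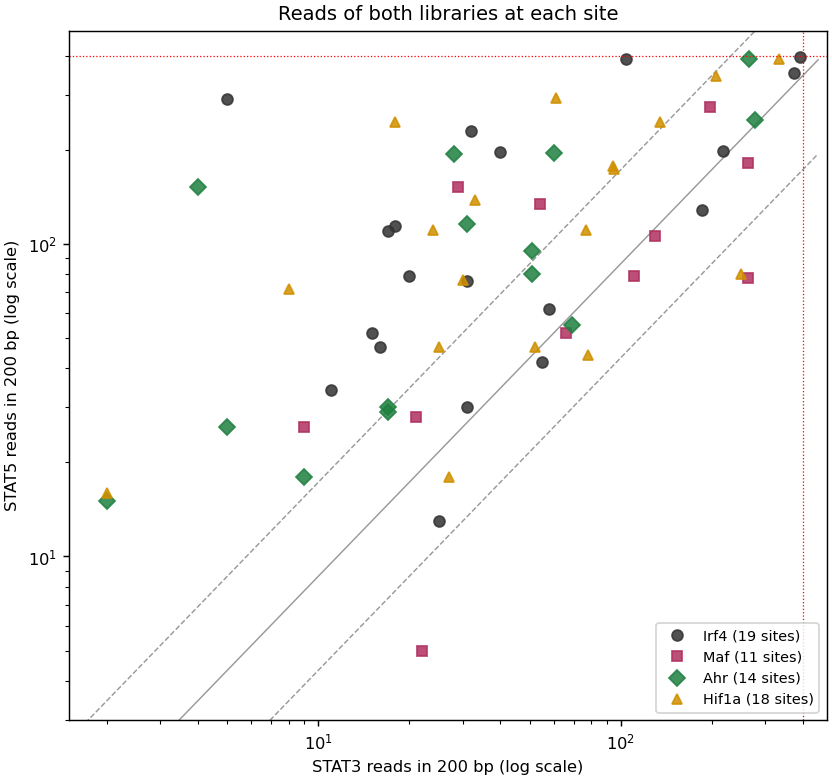
STAT5 against STAT3 reads in 200 bp at the 62 sites, both axes log, by gene window; the solid line is equal RPM, dashed lines are 2-fold, and red dotted lines are the ceiling of 400 reads. At STAT5 counts above 100 the STAT3 counts run from 4 to 391, and the Irf4, Ahr and Hif1a sites with 390 or more STAT5 reads lie near the ceiling.

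The sites had the form of fragments read from both ends. At sites with 50 or more reads of a library, minus strand 5′ ends lay a median of 81.75 bp to the right of plus strand 5′ ends for STAT3 (30 sites, range 14 to 115) and 95.25 bp for STAT5 (44 sites, range 34 to 148). Over the 27 sites with 50 or more reads of both, the median fragment position of the libraries differed by a median of 19 bp and by at most 76.5 bp, and by 25 bp or less at 19.

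Many further places stood above the genome-wide mean without being called. A region had to be 4-fold over the mean of the 5 or 10 kb around it, which includes the site and its neighbours, so crowded stretches lose sites. In a search added after the values were seen, 108 other places that did not overlap a site were local maxima at least 10-fold over the genome-wide mean of 1 library: 52 at Irf4, 9 at Maf, 13 at Ahr and 34 at Hif1a. These can include shoulders of called sites, and some lay below their own local means while others lay above. A place at Irf4 (chr13:30886501-30886700) had 33 STAT3 and 46 STAT5 reads, 0.408 and 0.539 of its local means. The search was not run over the genome, so the 108 have no genome-wide share to set beside them.

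The tallest lay at Irf4, next to site 9 (chr13:30840301-30840500), with 255 STAT5 and 105 STAT3 reads and a ratio of 2.81 (2.23 to 3.56). Another at Irf4 (chr13:30882101-30882300) had 211 and 98 reads and a ratio of 2.49 (1.95 to 3.20). The place with the most STAT3 reads, also at Irf4 (chr13:30877551-30877750), leaned the other way. It had 72 STAT5 and 123 STAT3 reads and a ratio of 0.677 (0.499 to 0.913). At the other loci such places had at most 49 STAT3 and 77 STAT5 reads at Maf, 63 and 77 at Ahr, and 73 and 99 at Hif1a.

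Counted over whole windows, in sites or not, the loci differed in their balance. The Irf4 window held 6949 STAT3 and 9893 STAT5 reads, a ratio of RPM of 1.65 (1.60 to 1.70). Hif1a had 6553 and 7973 reads and a ratio of 1.41 (1.36 to 1.45), and Ahr 3991 and 4787 reads and a ratio of 1.39 (1.33 to 1.45). Maf had 4024 and 3343 reads and a ratio of 0.961 (0.918 to 1.01).

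The interval for Maf lies wholly below those of the other 3 windows, and that for Irf4 wholly above, while Ahr and Hif1a overlap. Scaling by bins without a region, which held 8299006 STAT3 and 5186025 STAT5 reads, multiplies every ratio by 1.38. It leaves this order as it is, but the Maf ratios then lean to STAT5, in the whole window and outside its sites. Outside the sites the order was the same, with ratios of 1.51 (1.45 to 1.57) at Irf4, 1.22 (1.17 to 1.28) at Hif1a, 1.09 (1.03 to 1.16) at Ahr and 0.870 (0.820 to 0.924) at Maf. Within sites they were 1.91 (1.82 to 2.01) at Irf4, 1.84 (1.73 to 1.96) at Ahr, 1.66 (1.58 to 1.74) at Hif1a and 1.12 (1.04 to 1.20) at Maf. The ceiling on counts compresses the ratios of the tallest Irf4, Ahr and Hif1a sites. These sums, over windows or within sites, were not corrected for it. Per kb, the windows held 3.04 STAT3 and 5.01 STAT5 RPM at Irf4, 2.43 and 3.41 at Hif1a, 1.37 and 1.90 at Ahr, and 1.29 and 1.24 at Maf, against 0.424 of either over the genome.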

How the data were processed

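The deposited files list aligned reads of 1 STAT3 and 1 STAT5 library, 25 nt each, with start and end positions (a coordinate, no scaled unit) and a deposited score that is 0 in every line and was not used. Per the submitters' processing notes the genome is mm9. Aligner and filters: not given in the sources used here. No position and strand occurs more than 1 time, so 200 bp hold at most 400 reads.

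Read 5′ ends were moved 50 bp in the 3′ direction and counted in 200 bp windows, step 50 bp, over chromosomes 1 to 19, X and Y (scipy 1.17.1 and pandas 2.3.3 under Python 3.11.15). A window was called with at least 5 reads, a count no less than 4 times every background mean (genome-wide, and over 5 kb and 10 kb around it), and a 1-sided Poisson p, Benjamini-Hochberg adjusted over all windows with a read, at or below 1e-05. Called windows within 100 bp were joined, and regions with over 80% of summit reads on 1 strand were left out. Overlapping regions became sites, centred on the summit with the higher RPM. Ratios carry 95% intervals from the exact conditional (Clopper-Pearson) method, with no test between single libraries. Ratios after the correction for taken positions carry approximate intervals instead, as given below.

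The text names, per window, the 3 sites tallest with each antibody and up to 4 called sites a side in full. Members, lists and rules were chosen with earlier results of these data known. The caller was tested on simulated reads of a single chromosome, with isolated sites and no limit on reads per position and strand. Crowded sites and the ceiling on counts were not part of that simulation. Other Th17 genes are not described here, since no mm9 annotation was used. The correction for taken positions replaced a count n by −N ln(1 − n/N), with N = 400, where both counts were 20 or more. It takes all 400 positions as equally usable, which was not tested. Intervals of ratios corrected in this way are approximate, from a normal approximation on the log scale (delta method).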

Additional observations from a re-analysis of the deposited data

How the results depend on the processing

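The alternatives were planned, and the cause of a change was not tested beyond what each rule fixes. An 8-fold minimum left 12 STAT3 and 21 STAT5 regions in the 4 windows, with 8 sites higher with STAT5 and 1 with STAT3. Of 49486 sites over the genome under that minimum, 17429 were called higher with STAT5 and 1599 with STAT3. The genome-wide mean alone gave 103 and 105 regions. Counting in 400 bp left 1 site higher with STAT3, at Hif1a, where 2078 of 85700 sites of the genome were called so. Scaling by bins without a region left 0, where 1037 of the 85700 were called so. Its ratios at the tallest sites were 1.62 at Irf4, 2.21 at Maf, 2.35 at Ahr and 1.87 at Hif1a. The correction for taken positions gave 1.49, 1.96, 3.90 and 2.44 there. With that correction 26 sites in the windows were called higher with STAT5 and 2 with STAT3. Over the genome 25107 and 3318 of 85700 sites were called so. The STAT5 calls it gained were Ahr site 10 and Hif1a sites 3, 4 and 10. STAT5-higher sites numbered 19 (400 bp) to 33 (scaling by bins) over the alternatives other than the 8-fold minimum. Over the genome these 2 settings called 21557 and 29671 of 85700 sites so, against 23827 by the main rule. The 1.5-fold limit called 32 in the windows and 28985 over the genome. Counting in 400 bp kept 18 of the 22, without Irf4 site 7, Maf site 7, Ahr site 1 and Hif1a site 16. Scaling by bins and the 1.5-fold limit cannot lose a STAT5 call by construction, and the correction can hardly do so. No paired analysis was possible because each group is 1 library. Depth limits the smallest sites: a ratio on 2 STAT3 and 15 STAT5 reads has an interval from 2.02 to 78.2.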
